A study of Mus musculus with 18 samples.

Results

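The genes through which the colon takes up salt and water were followed as 10 genes, chosen by symbol: the carbonic anhydrases *Car1*, *Car2* and *Car4*, the anion transporters *Slc26a3* and *Slc26a2*, the sodium-proton exchanger *Slc9a3*, the sodium channel subunit *Scnn1a*, the proton-potassium pump subunit *Atp12a* and the water channels *Aqp8* and *Aqp4*. All 10 were among the 43346 genes of the count table, and all 10 passed the filter of a mean count above 0, as did 26717 genes in total. RNA had been sequenced from EPCAM-positive cells sorted by GFP level out of crypts of the small intestine (SI) and the large intestine (LI), where high GFP stood for centre cells, medium for border cells and low for cells above row 3 (row >3). The 18 libraries made 6 groups of 3 replicates, namely SI centre, SI border, SI row >3, LI centre, LI border and LI row >3. Every group came from untreated C57BL/6 mice that were 8 to 20 weeks old by the labels, with the genotype Lgr5_eGFP_Iris_creERT2. This allele places GFP and an inducible Cre in the *Lgr5* locus, so the sorted cells of all 6 groups carry the insert, and cells of crypts that silence it are not sampled. The labels and the methods for the sorted RNA do not tell which stretch of the SI or LI was taken (distal ileum and cecum are named for fixed crypts) or which animal a replicate number stands for, so that p-values measure the spread between these libraries. Between 8312093 and 31940965 reads were counted on genes per library.

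Absorption of sodium chloride in the intestine couples a pair of exchangers in the apical membrane: one takes up sodium for protons and the other takes up chloride for bicarbonate. Carbonic anhydrases supply both protons and bicarbonate from carbon dioxide and water. In the distal colon, sodium also enters through the epithelial sodium channel under the control of aldosterone, a proton-potassium pump recovers potassium, and water follows through aquaporins and between cells. Many of these genes are known from the absorptive cells of the crypt top and surface, while the cells measured here lay in and just above the stem cell zone.

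One set of SI libraries stood apart and touched nearly every value below. Values are normalised counts, the authors' count divided by 1 size factor per library. *Car2* was at 7.08 to 41.9 in SI replicates 1 and 2, at 4066 to 10181 in SI replicate 3 and at 6688 to 18642 in the LI. Among markers of the LI, *Hoxa13*, a regulator of the distal gut, was at 0 in SI replicates 1 and 2, at 0 to 6.24 in SI replicate 3 and at 0 to 27.3 in the LI, while *Hoxd10* and *Hoxd12* were at 0 in all 18 libraries and *Hoxb13* reached at most 1.52. *Lgr5*, which set the sort, was lower in SI replicate 3 at each level. It was at 2434, 157 and 28.1 in centre, border and row >3 cells, against 5252.5 and 4191, 1610.3 and 2028, and 169.6 and 279.6 in SI replicates 1 and 2, so that the border library of SI replicate 3 was below both of their row >3 libraries. SI replicate 3 also held SI transcripts that the LI lacked. Its *Gata4*, a regulator of the proximal SI, was at 130 to 148, where the LI reached at most 1.18, and its summed Paneth cell markers were at 4685 to 42170, against at most 245.2 in the LI. These Paneth sums were below both other SI libraries in border cells (11760 against 79940 and 137700) and in row >3 cells (4685 against 71690 and 104000). In centre cells its sum of 42170 lay between theirs, 38960 and 184700. Of the 9 salt and water genes other than *Atp12a*, SI replicate 3 was above both other SI libraries in 8 of centre cells, in 8 of border cells and in 7 of row >3 cells. Why this replicate differed was not tested. The main results are given for all libraries and without SI replicate 3, and the setting is named where 1 is given. This replicate was set apart in part by the members' own values, so calls made only without it are no independent support for a site difference. On simulated counts, the edgeR fit without it also called several times more unchanged genes than its threshold allows. *Car1* and *Car2* are also abundant in red cells. The 7 measured red cell markers together stayed at or below 13.7 in every library, and *Hbb-bt* was at 0 throughout. *Epcam* was at 14653 to 24706 in all libraries.

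The first question was how the LI differs from the SI at each level of *Lgr5*. In SI replicates 1 and 2, *Car1*, *Car2* and *Car4* were rare or absent in centre cells and abundant in the LI, *Aqp8* was at 0 in centre cells and at a low level in the LI, *Slc26a3*, *Slc26a2* and *Scnn1a* were present at both sites and higher in LI centre cells, and *Slc9a3* was lower in LI border and row >3 cells. With all 18 libraries, edgeR's quasi-likelihood test (adjusted p under 0.05, adjusted over all genes tested) called 0 of 10 members in centre cells, where 1.99% of all genes were called. The unadjusted p was under 0.05 for 0 members by edgeR and for 3 by DESeq2, which also called 0, with 4.64% of all genes. In border cells 1 member was called, with 1.76% of all genes, and in row >3 cells 1 member, with 4.09%. Both calls were *Slc9a3*, which was lower in the LI, as were 1.15% and 2.76% of all genes. Without SI replicate 3 the same test called 7 of 10 members at each level. It called the same 7 with low counts filtered by filterByExpr as well, where 19.7%, 15.4% and 21.2% of the genes tested were called. The omitted replicate had been set apart in part by these members' values, so these calls are no independent support for a site difference. All 7 were higher in the LI in centre cells and in border cells, where 6.39% and 4.4% of all genes were called higher. In row >3 cells 6 were higher and 1 lower, with 5.36% and 6.8% of all genes called in these directions. With all libraries, the 3 LI and 3 SI libraries did not overlap in CPM, the count scaled to library size, for 6 members that were higher in LI centre cells, where 9.84% of all genes showed this. Of these, *Scnn1a* overlapped in normalised counts. In border cells 1 was higher without overlap (*Scnn1a*, 8.58% of all genes) and 1 lower (*Slc9a3*, 6.45%), and in row >3 cells 1 higher (*Car2*, 8.69%) and 1 lower (*Slc9a3*, 9.03%). A block for the replicate number within each site called 6 members at each level with all libraries, against 11.9%, 10.2% and 13.7% of all genes, but it takes the spread between replicates out of this comparison. The median log2 fold change of the members was 3.58, 2.42 and 1.56 at the 3 levels without SI replicate 3, against 0 for all genes tested, and 1.64, 0.43 and 0.55 with all libraries. Other cell types moved with this comparison: the summed goblet and deep crypt secretory markers of centre cells were at 14280 and 24790 in SI replicates 1 and 2, at 230300 in SI replicate 3 and at 156600 to 259600 in the LI. In border cells they were at 182700, 86950 and 288300 in SI replicates 1, 2 and 3 and at 208600 to 306000 in the LI. In row >3 cells the order was the other way, with 1048000, 732700 and 679100 in the SI and 334500 to 530700 in the LI. In centre cells the differentiated absorptive markers were at 16020 to 18230 in SI replicates 1 and 2, at 28930 in SI replicate 3 and at 27180 to 34330 in the LI, and the tuft cell markers at 625.6 to 765.3, 10450 and 3295 to 5492. In row >3 cells the absorptive sums, given below for each site, overlapped and reached higher in the SI. The tuft cell marker *Dclk1* was there at 2787, 3132 and 727 in the SI and at 1400 to 1648 in the LI. The part of these cell types in the members' values was not tested.

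**Figure D1:**
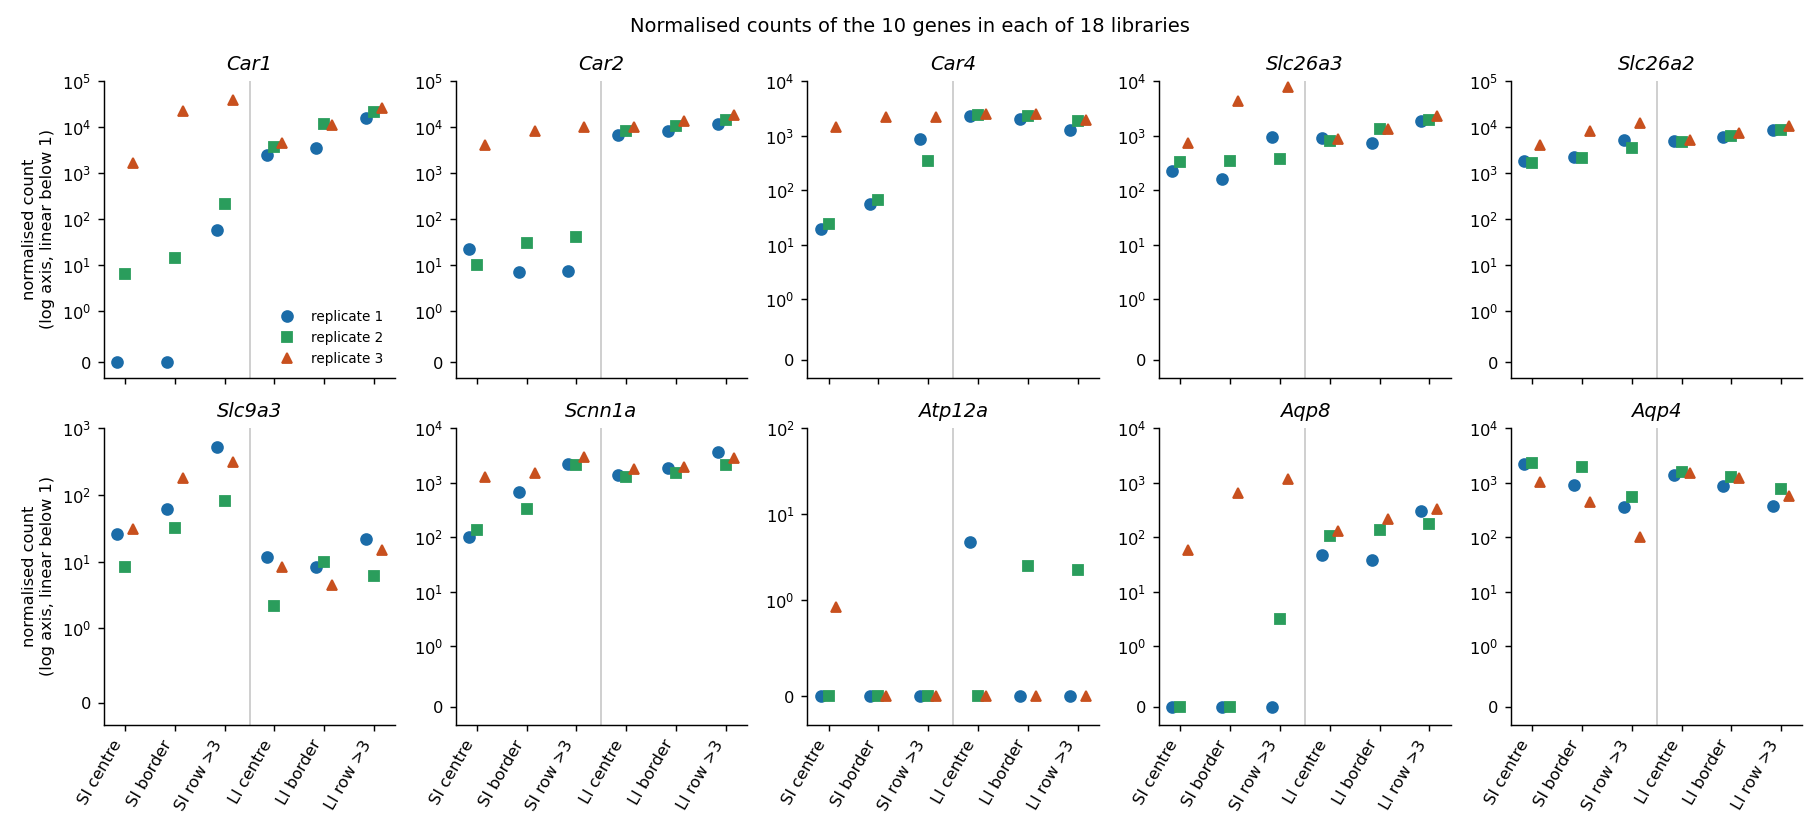
Normalised counts of the 10 genes in each library (y axis, logarithmic above 1 and linear below, a different range in each panel) for the 6 groups on the x axis, with 1 symbol per replicate. Triangles of SI replicate 3 lie near the LI values for *Car1*, *Car2*, *Car4* and *Aqp8*, while SI replicates 1 and 2 lie far below them, except for *Car4* in row >3 cells, where they are at 864 and 345 against 1253 to 1968 in the LI; for *Slc9a3* all 3 SI replicates of row >3 cells, at 81.3 to 528, lie above the LI, at 6.07 to 21.9.

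*Car1* (ENSMUSG00000027556, chr3:14766216-14808368 of GRCm38, minus strand) encodes a cytosolic carbonic anhydrase of the colonic epithelium. In centre cells, SI replicates 1, 2 and 3 had normalised counts of 0, 6.45 and 1668, and the LI had 2498, 3750 and 4510. In border cells the SI had 0, 14.3 and 22796 and the LI 3444, 11448 and 10925, and in row >3 cells the SI had 59.5, 215 and 38981 and the LI 15895, 21055 and 26487. SI replicate 3 was thus below all LI libraries in centre cells and above them all in border and row >3 cells, while replicates 1 and 2 were below the LI throughout. The log2 fold change of the LI over the SI was 2.74 (SE 2.54) in centre cells with all libraries, with an adjusted p of 0.722 in edgeR's quasi-likelihood test, and 0.20 (SE 2.35) and 0.73 (SE 2.36) in border and row >3 cells, also not called. It was 10.19 (SE 1.17), 9.91 (SE 1.11) and 7.30 (SE 0.79) in centre, border and row >3 cells without SI replicate 3, with adjusted p of 1.0e-04, 1.1e-04 and 5.2e-05. Over all alternatives the adjusted p in centre cells ran from 5.8e-19 to 1.

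*Car2* (ENSMUSG00000027562, chr3:14886273-14900770, plus strand), on the same chromosome, encodes a cytosolic carbonic anhydrase of wide use. SI replicates 1, 2 and 3 had 22.7, 10.1 and 4066 in centre cells, 7.08, 31.1 and 8383 in border cells and 7.52, 41.9 and 10181 in row >3 cells. The LI had 6688, 8051 and 10145, then 8355, 10735 and 13665, then 11552, 14056 and 18642 at the same levels. SI replicates 1 and 2 stayed at or below 0.298% of the LI median at every level, while SI replicate 3 was at 50.5%, 78.1% and 72.4% of it. Without SI replicate 3 the log2 fold change was 8.97 (SE 0.59), 8.97 (SE 0.61) and 9.29 (SE 0.57), with adjusted p of 7.6e-07, 1.4e-06 and 3.3e-07 in edgeR's quasi-likelihood test. With all libraries it was 2.65 (SE 2.37), 1.97 (SE 2.31) and 2.15 (SE 2.33), and none passed. The adjusted p in centre cells ran from 9.9e-38 to 1 over the alternatives.

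The ratio of the raw counts of *Car1* and *Car2* was also read within each library. *Car1* over *Car2* was 0.374 to 0.466 in LI centre cells, 0.412 to 1.07 in LI border cells and 1.376 to 1.498 in LI row >3 cells. In SI replicate 3 it was 0.41 in centre cells, within the LI range, but 2.72 in border and 3.83 in row >3 cells, above every LI library. In SI replicates 1 and 2 of row >3 cells it was 7.91 and 5.13. These came from 87 and 272 counts of *Car1* and only 11 and 53 counts of *Car2*, so they are imprecise.

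*Car4* (ENSMUSG00000000805, chr11:84957786-84966044, plus strand) encodes a carbonic anhydrase anchored on the outer face of the apical membrane. Its centre cells had 19.4, 23.9 and 1409 in the SI and 2308, 2347 and 2526 in the LI. Border cells had 54.3, 66.1 and 2193 in the SI and 2010, 2319 and 2433 in the LI. Row >3 cells had 864, 345 and 2153 in the SI and 1253, 1865 and 1968 in the LI. The gap between SI replicates 1 and 2 and the LI thus narrowed from centre to row >3 cells. Its log2 fold change without SI replicate 3 was 6.81 (SE 0.43) in centre, 5.23 (SE 0.41) in border and 1.49 (SE 0.28) in row >3 cells, with adjusted p of 5.7e-09, 1.0e-07 and 0.0013 in edgeR's quasi-likelihood test. With all libraries it was 2.35 (SE 1.47), 1.54 (SE 1.43) and 0.66 (SE 1.40), none of them called, and without SI centre replicate 3 alone the centre value was 6.83, with an adjusted p of 0.0457.

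*Slc26a3* (ENSMUSG00000001225, chr12:31390871-31473917, plus strand) encodes the apical chloride-bicarbonate exchanger whose loss causes congenital chloride diarrhoea. It was well expressed at both sites. Its values were 223, 329 and 743 in SI centre, 161, 337 and 4287 in SI border and 935, 366 and 7684 in SI row >3 cells. In the LI they were 901, 781 and 881, then 738, 1339 and 1326, then 1861, 1898 and 2283. SI replicate 3 lay below the LI in centre cells but at 323% and 405% of the LI median in border and row >3 cells. The log2 fold change of the LI over the SI took opposite signs with and without it: -0.48 (SE 1.13) and 2.16 (SE 0.43, adjusted p 0.00538) in border cells, and -0.53 (SE 1.12) and 1.63 (SE 0.37, adjusted p 0.00951) in row >3 cells, by edgeR's quasi-likelihood test. In centre cells both were positive, at 1.04 (SE 1.16) and 1.65 (SE 0.40, adjusted p 0.0148).

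*Slc26a2* (ENSMUSG00000034320, chr18:61192919-61211612, minus strand) encodes a sulphate transporter of the same family. Its SI values were 1818, 1669 and 4010 in centre, 2286, 2148 and 8375 in border and 5333, 3560 and 12370 in row >3 cells. The LI had 4936, 4638 and 5349, then 6083, 6363 and 7310, then 8432, 8653 and 10678. The difference between the sites was the smallest among the 6 members called higher in the LI at all 3 levels without SI replicate 3, with log2 fold changes of 1.53 (SE 0.17), 1.61 (SE 0.17) and 1.07 (SE 0.17) and adjusted p of 7.3e-07, 5.2e-07 and 5.9e-05 in edgeR's quasi-likelihood test. With all libraries the values were 1.04, 0.66 and 0.43, with SEs of 0.56 to 0.57 and no call.

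*Slc9a3* (ENSMUSG00000036123, chr13:74121457-74169442, plus strand), which encodes the apical sodium-proton exchanger NHE3, was lower in the LI in border and row >3 cells. SI row >3 cells had 528, 81.3 and 314 and LI row >3 cells 21.9, 6.07 and 15.1, so that the highest LI library was below the lowest SI library. Border cells had 61.4, 32.4 and 180 in the SI and 8.25, 9.98 and 4.47 in the LI, again without overlap. In centre cells the SI had 25.9, 8.29 and 30.8 and the LI 11.8, 2.19 and 8.18, and the groups overlapped. The log2 fold change of the LI over the SI was -4.40 (SE 0.70, adjusted p 6.1e-04) in row >3 cells and -3.67 (SE 0.85, adjusted p 0.0267) in border cells with all libraries, by edgeR's quasi-likelihood test. Without SI replicate 3 it was -4.46 (SE 0.67, adjusted p 1.1e-04) and -2.54 (SE 1.23, adjusted p 0.28). In border cells 0.0222 was the adjusted p with the replicate block as well, which takes the spread between replicates out of this comparison. The call in row >3 cells thus held without SI replicate 3 and in all 6 fits that left out 1 library of these groups, where the adjusted p ran from 2.2e-05 to 0.00844. The call in border cells was lost without SI border replicate 3 (log2 fold change -2.52) and without LI border replicate 1, 2 or 3; over the 6 such fits the adjusted p ran from 0.0104 to 0.174. The row >3 value of SI replicate 3, 314, was 2079.5% of the LI median.

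*Scnn1a* (ENSMUSG00000030340, chr6:125320659-125344943, plus strand) encodes the alpha subunit of the epithelial sodium channel. SI centre cells had 102, 134 and 1292 and LI centre cells 1356, 1246 and 1801. In border cells the SI had 675, 331 and 1484 and the LI 1838, 1493 and 1966, which left no overlap. In row >3 cells the SI had 2180, 2117 and 2988 and the LI 3623, 2079 and 2844, and all 3 SI values lay within the range of the LI. The log2 fold change without SI replicate 3 was 3.67 (SE 0.31, adjusted p 1.0e-07) in centre, 1.90 (SE 0.28, adjusted p 1.3e-04) in border and 0.41 (SE 0.24, adjusted p 0.372) in row >3 cells, by edgeR's quasi-likelihood test. With all libraries it was 1.58 (SE 0.79), 1.13 (SE 0.78) and 0.28 (SE 0.76), with no call. Leaving out SI centre replicate 3 alone gave 3.69 in centre cells, with an adjusted p of 0.00126.

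*Atp12a* (ENSMUSG00000022229, chr14:56365068-56388550, plus strand) encodes the catalytic subunit of the non-gastric proton-potassium pump, which is known from the surface of the distal colon. It was all but undetected, with 10 counts in 4 of 18 libraries and at most 4 in any. A floor of 3 counts over all libraries would be a level of 0.00784 CPM, for counting error only. The 10 counts found lie above this floor, so it is no upper limit for *Atp12a* here. No fold change is given for it.

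*Aqp8* (ENSMUSG00000030762, chr7:123462291-123468004, plus strand) encodes a water channel of the colonic absorptive cell. SI replicates 1 and 2 had 0 counts in centre and in border cells, and 0 and 4 raw counts in row >3 cells. SI replicate 3 had normalised counts of 56.9, 647 and 1171 at the 3 levels. LI libraries had 47.0, 105 and 131 in centre, 37.6, 136 and 211 in border and 307, 175 and 329 in row >3 cells. Set against a floor of 3 counts over SI replicates 1 and 2, the mean of the LI was at least 76.7-fold higher in centre and at least 54.5-fold higher in border cells. In row >3 cells the log2 fold change without SI replicate 3 was 7.42 (SE 1.05, adjusted p 1.1e-04 in edgeR's quasi-likelihood test). The value with all libraries was -0.43 (SE 1.72) there and -0.80 (SE 1.79) in border cells, so that the direction turned with SI replicate 3, whose *Aqp8* was at 476% and 381% of the LI median in border and row >3 cells.

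*Aqp4* (ENSMUSG00000024411, chr18:15389496-15410982, minus strand) encodes a water channel of the basolateral membrane. It had 2184, 2270 and 1035 in SI centre and 1356, 1594 and 1491 in LI centre cells. Border cells had 897, 1961 and 445 in the SI and 875, 1274 and 1228 in the LI, and row >3 cells 354, 542 and 101 in the SI and 370, 752 and 575 in the LI. SI replicate 3 was the lowest library of its group at every level. The log2 fold change of the LI over the SI was -0.24 (SE 0.54), 0.10 (SE 0.55) and 0.81 (SE 0.56) with all libraries and -0.57 (SE 0.30), -0.33 (SE 0.32) and 0.36 (SE 0.33) without SI replicate 3, and none was called by edgeR's quasi-likelihood test without a block. With the replicate block, LI row >3 cells were called higher with all libraries, at 0.97 (SE 0.21, adjusted p 0.00322), and LI centre cells were called lower without SI replicate 3, at -0.59 (SE 0.17, adjusted p 0.0182). The block takes the spread between replicates out of this comparison, so these calls are not leant on. In centre cells SI replicates 1 and 2 were above all 3 LI libraries and SI replicate 3 below them.

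**Figure D2:**
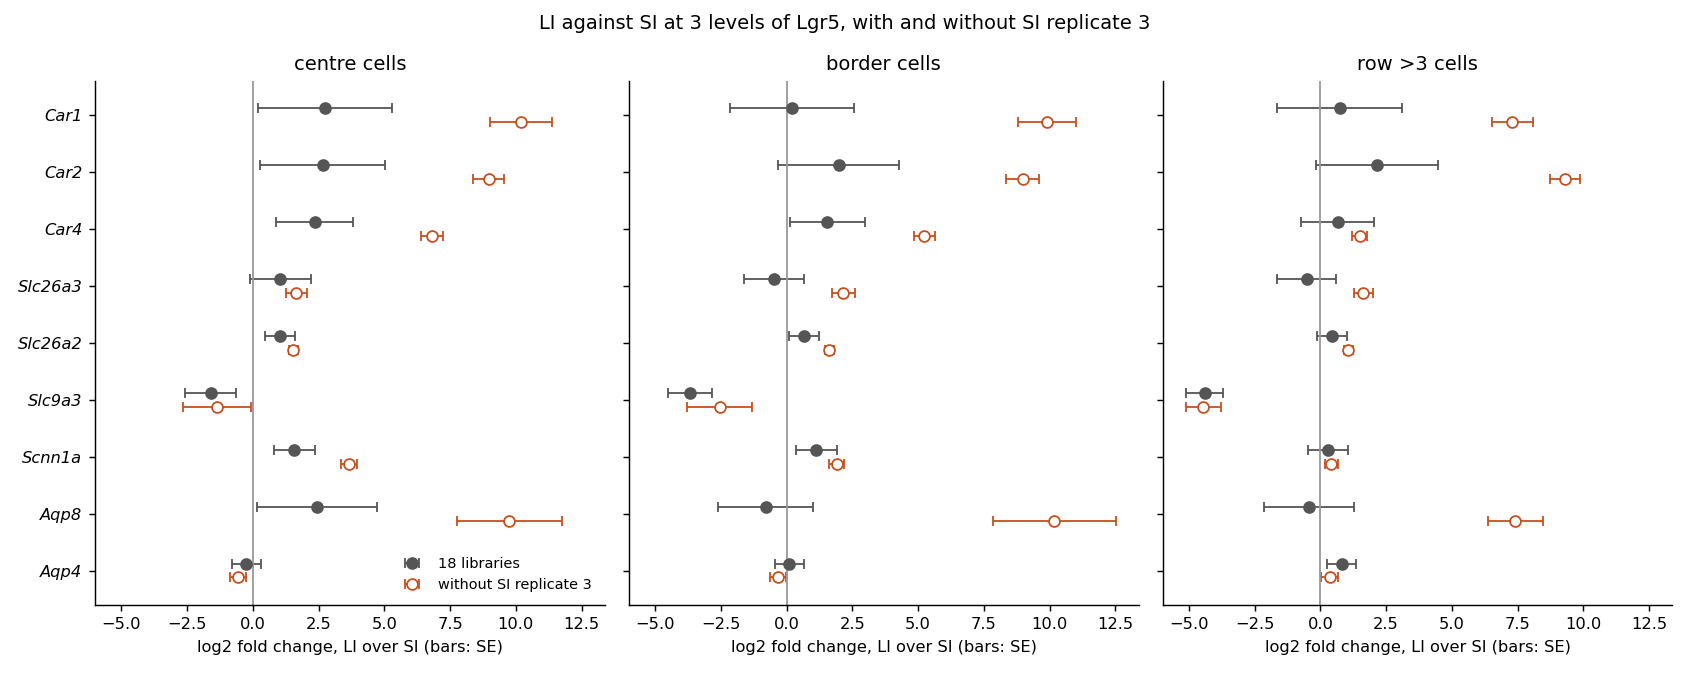
Fitted log2 fold change of the LI over the SI (x axis) for 9 members (y axis; *Atp12a*, with 10 counts in all, is left out) in centre, border and row >3 cells, with bars for the SE; filled points use all 18 libraries and open points leave out SI replicate 3. Without that replicate *Car1*, *Car2* and *Aqp8* move far to the right (8.97 for *Car2* in centre cells against 2.65), *Slc9a3* stays left of 0 and *Aqp4* stays near 0; the *Aqp8* values of centre and border cells stand against 0 counts in the SI and are no measure of size.

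To see what the start sites of members that moved in opposite directions look like, the promoter windows of the 4 members with an entry in the RefSeq table (GRCm38.p6; 250 bases before to 50 bases after the start, plus strand in all 4) are shown, 3 from genes called higher in the LI without SI replicate 3 and that of *Slc9a3*. With all libraries *Slc26a3* and *Aqp8* were not called, at -0.48 and -0.80 in border cells and -0.53 and -0.43 in row >3 cells. Capitals mark a TATA box (TATAAA) or a GC box (GGGCGG), sought on both strands.
Car4 (chr11:84957504-84957803): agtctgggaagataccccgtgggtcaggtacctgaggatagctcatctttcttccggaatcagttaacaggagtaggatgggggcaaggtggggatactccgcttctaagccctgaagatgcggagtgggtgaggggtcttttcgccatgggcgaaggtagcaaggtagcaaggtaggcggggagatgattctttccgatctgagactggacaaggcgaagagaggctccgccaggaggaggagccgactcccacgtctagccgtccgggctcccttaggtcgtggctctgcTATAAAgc
Slc26a3 (chr12:31437969-31438268): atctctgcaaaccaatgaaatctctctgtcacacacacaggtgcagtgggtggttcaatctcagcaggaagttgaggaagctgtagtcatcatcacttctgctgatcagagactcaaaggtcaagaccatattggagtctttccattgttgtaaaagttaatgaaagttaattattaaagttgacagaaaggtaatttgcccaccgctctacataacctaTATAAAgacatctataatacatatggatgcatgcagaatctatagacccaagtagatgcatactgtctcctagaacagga
Aqp8 (chr7:123462044-123462343): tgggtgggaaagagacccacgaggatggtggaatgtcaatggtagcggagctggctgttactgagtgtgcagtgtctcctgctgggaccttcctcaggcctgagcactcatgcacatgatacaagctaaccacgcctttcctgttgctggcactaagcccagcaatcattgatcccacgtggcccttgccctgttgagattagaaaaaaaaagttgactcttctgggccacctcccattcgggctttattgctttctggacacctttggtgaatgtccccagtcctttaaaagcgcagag
Slc9a3 (chr13:74121163-74121462): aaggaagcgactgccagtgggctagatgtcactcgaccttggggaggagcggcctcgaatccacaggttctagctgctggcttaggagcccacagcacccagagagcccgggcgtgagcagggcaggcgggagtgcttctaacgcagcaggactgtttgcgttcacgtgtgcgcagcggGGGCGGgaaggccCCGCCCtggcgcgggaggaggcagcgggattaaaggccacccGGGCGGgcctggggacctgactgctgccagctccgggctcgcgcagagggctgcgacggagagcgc

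The *Slc9a3* window held the GC box 3 times, on the gene's strand at -71 and -16 and on the other strand at -58, counted from a start at 1, and had a GC content of 68.7%. The *Slc26a3* window had a GC content of 39.3% and a TATA box at -30, and that of *Car4*, with 57.3%, held these letters at 43, after the start. No match to any of the motifs was found in the *Aqp8* window, with 52% GC. Of all 32851 windows of this length, 13.6% held a TATA box and 35.7% a GC box. The letters of a CDX core (TTTATG, 11.9% of windows) and an HNF4 element (CAAAGTCCA, 0.475%) were in none of the 4, nor were the longer HNF1 and steroid receptor elements (0.00913% of windows each). No match overlapped another. The window of *Slc26a3* lies inside the longer GENCODE gene model, which starts further upstream.

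The second comparison was between levels of *Lgr5* within the LI. From centre to row >3 cells, *Car1* was higher in 3 of 3 replicates by 5.61 to 6.36-fold, *Aqp8* was higher in 3 of 3 by 1.67 to 6.52-fold, and *Car2*, *Slc26a3*, *Slc26a2* and *Scnn1a* were, like the low *Slc9a3*, higher in 3 of 3 by smaller ratios than *Car1*, while *Aqp4* and *Car4* were lower in 3 of 3. The 3 libraries of each group did not overlap for 6 members higher in row >3 cells, where 7.79% of all genes showed this, and for 2 members lower, where 7.07% did. In the fit of all 18 libraries, edgeR's quasi-likelihood test called 0 of 10 members, with 1 at an unadjusted p under 0.05, and 0.0187% of all genes; DESeq2 called 0, also with 1 at an unadjusted p under 0.05. That fit shares 1 spread over both sites, SI replicate 3 included, and leaves out the pairing of equal replicate numbers within a site. It called 4 members once SI replicate 3 was left out, against 1.9% of all genes: *Car1*, *Scnn1a* and *Slc26a2* rose and *Aqp4* fell. A fit on the LI centre and row >3 libraries alone called these 4 and *Slc26a3*, where 1.03% of all genes were called. A block for the replicate number within each site gave 5 calls with all libraries, against 2.59% of all genes. *Car1*, *Car2*, *Slc26a2* and *Aqp8* rose and *Aqp4* fell. The block together with the omission of SI replicate 3 gave 7 calls, against 6.78%, adding *Scnn1a*, higher, and *Car4*, lower.

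*Car1* had 3586 ± 1016 (SD, n = 3) in LI centre, 8606 ± 4478 in LI border and 21145 ± 5296 in LI row >3 cells. Its log2 fold change of row >3 over centre cells was 2.56 (SE 2.49, adjusted p 0.969) with all libraries and 2.55 (SE 0.51, adjusted p 0.0291) without SI replicate 3, by edgeR's quasi-likelihood test, so that the size was the same and the error was not. *Car2*, at 8295 ± 1741, 10918 ± 2660 and 14750 ± 3596, gained 1.73 to 1.84-fold in each replicate number, with a log2 fold change of 0.82 (SE 0.30, adjusted p 0.252) without SI replicate 3 and 0.83 (SE 0.14, adjusted p 0.00295) with the block and all libraries. The exchanger *Slc26a3*, at 854 ± 64, 1134 ± 343 and 2014 ± 234, had a log2 fold change of 1.23 (SE 0.32, adjusted p 0.0765) without SI replicate 3 and 1.24 (SE 0.16, adjusted p 0.00178) in the fit on these LI groups alone. *Slc26a2*, at 4975 ± 357, 6585 ± 643 and 9254 ± 1238, rose by 0.89 (SE 0.14, adjusted p 0.0015) without SI replicate 3. *Scnn1a*, at 1468 ± 294, 1766 ± 244 and 2849 ± 772, rose by 0.94 (SE 0.22, adjusted p 0.032) in the same fit, and *Aqp8*, at 94.3 ± 42.9, 128 ± 86.8 and 270 ± 83.1, had 1.45 (SE 0.46, adjusted p 0.145) there and 1.52 (SE 0.37, adjusted p 0.0418) with the block and all libraries.

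2 members were lower away from the crypt base. *Aqp4* had 1480 ± 119 (SD, n = 3) in LI centre, 1125 ± 218 in LI border and 566 ± 191 in LI row >3 cells and fell by 1.39 on the log2 scale (SE 0.29, adjusted p 0.0236) without SI replicate 3, by edgeR's quasi-likelihood test. It was lower at each step in every replicate number. *Car4* had 2393 ± 116, 2254 ± 219 and 1695 ± 387 and a log2 fold change of -0.50 (SE 0.24, adjusted p 0.409), or -0.52 (SE 0.13, adjusted p 0.0246) with the block as well. It was thus the carbonic anhydrase that did not share the direction of *Car1* and *Car2*. *Slc9a3* was higher in row >3 than in centre cells in 3 of 3 LI replicates, by 1.84 to 2.78-fold, but was not called. It was at 7.38 ± 4.84, 7.57 ± 2.82 and 14.3 ± 7.92, with a log2 fold change of 1.02 (SE 1.25, adjusted p 0.893). Between LI border and centre cells, and between LI row >3 and border cells, edgeR's quasi-likelihood test called 0 members with all libraries, against 0% of all genes in each, with 0 members at an unadjusted p under 0.05; DESeq2 called 0 in each, with 0 and 1. Between LI row >3 and border cells, 4 were called with the block and without SI replicate 3, against 1.53%: *Car1*, *Scnn1a* and *Slc26a2* rose and *Aqp4* fell.

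Other cell types changed between these levels too. The summed markers of goblet and deep crypt secretory cells were at 156600 to 259600 in LI centre and 334500 to 530700 in LI row >3 cells, those of differentiated absorptive cells at 27180 to 34330 and 43510 to 61390, and those of stem cells at 10620 to 13150 and 3701 to 4497. *Lgr5* itself, which set the sort, was at 2176.5 to 2575 and 134 to 466. In such bulk libraries, fewer cells of a type and less RNA per cell cannot be told apart. The part of these shifts in the members' values was not tested.

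The third comparison was the same step in the SI. *Slc9a3*, the exchanger that was low in the LI, rose from centre to row >3 cells in all 3 SI replicates, and *Aqp4* fell in all 3. These were the 2 members that edgeR's quasi-likelihood test called with all libraries, 1 higher and 1 lower, where 7.35% and 5.82% of all genes were called in these directions. The test called 6 members without SI replicate 3: *Car1*, *Car4*, *Slc26a2*, *Slc9a3* and *Scnn1a* rose and *Aqp4* fell, against 9.97% and 7.09% of all genes. All 3 libraries of the groups were apart for 2 members higher in row >3 cells (*Slc9a3* and *Scnn1a*, 12.8% of all genes) and 1 lower (*Aqp4*, 12.3%). With the replicate block within site, which keeps the pairing of equal replicate numbers, and all libraries, 9 of 10 were called. Of these, 8 were higher and *Aqp4* lower, where 22.8% of all genes were called.

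*Slc9a3* was 20.4, 9.82 and 10.2-fold higher in row >3 than in centre cells of SI replicates 1, 2 and 3. Its log2 fold change was 3.82 (SE 0.66, adjusted p 5.6e-04) with all libraries and 4.13 (SE 0.74, adjusted p 5.7e-04) without SI replicate 3, and it stayed called in all 6 fits that left out 1 library. *Scnn1a* had the same order in all replicates, at 21.4, 15.9 and 2.31-fold, and the SI groups did not overlap. Its log2 fold change was 2.25 (SE 0.81, adjusted p 0.0939) with all libraries and 4.20 (SE 0.33, adjusted p 5.3e-08) without SI replicate 3, by edgeR's quasi-likelihood test. By the same test it was also the only member called between SI border and centre cells without SI replicate 3 (DESeq2 called *Car4* as well), at 2.02 (SE 0.34, adjusted p 0.00378), where 0.963% of all genes were called. The tuft cell marker *Dclk1* rose in this step too, from 167 and 215 to 7036 and 2206 in SI replicates 1 and 2. In SI replicate 3 it was at 4136 and 3528. The part of tuft cells in the call was not tested. With all libraries 0 members were called in that step, against 0.0112% of all genes, with an unadjusted p under 0.05 for 1 (*Slc9a3*), and the same counts by DESeq2, where 0.782% of all genes were called; with the replicate block 6 were called, against 2.32%.

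*Car4* was 44.4 and 14.4-fold higher in row >3 than in centre cells of SI replicates 1 and 2 but 1.53-fold in replicate 3, which started high. Its log2 fold change was 1.21 (SE 1.43, adjusted p 0.731) with all libraries and 4.81 (SE 0.45, adjusted p 8.3e-07) without SI replicate 3 in edgeR's quasi-likelihood test. *Car1* went from 0 and 6.45 to 59.5 and 215 in replicates 1 and 2, with a log2 fold change of 5.43 (SE 1.53, adjusted p 0.03) without SI replicate 3, while *Car2* went from 22.7 and 10.1 to 7.52 and 41.9, in opposite directions. *Slc26a2* rose by 1.36 (SE 0.18, adjusted p 8.0e-06) without SI replicate 3, with ratios of 2.93, 2.13 and 3.08 in replicates 1, 2 and 3. *Slc26a3* was 4.20, 1.11 and 10.3-fold higher and was not called by edgeR's quasi-likelihood test without a block, at 2.81 (SE 1.21, adjusted p 0.174) with all libraries and 1.25 (SE 0.42, adjusted p 0.0591) without SI replicate 3. It was called by DESeq2 in both settings, with adjusted p of 0.0278 and 0.00727, and, by edgeR, with the replicate block and all libraries (1.98, SE 0.61, adjusted p 0.0498) and with a stricter filter on low counts (filterByExpr) without SI replicate 3 (adjusted p 0.0281).

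*Aqp4* was at 0.162, 0.239 and 0.098 of its centre level in SI row >3 cells of replicates 1, 2 and 3. The log2 fold change was -2.44 (SE 0.58, adjusted p 0.013) with all libraries and -2.31 (SE 0.36, adjusted p 2.9e-04) without SI replicate 3 in edgeR's quasi-likelihood test. The call was lost without SI row >3 replicate 1, with an adjusted p of 0.0619, and in the fit on the SI centre and row >3 libraries alone, with 0.101. Between SI row >3 and border cells 0 members were called with all libraries, against 1.61% of all genes, with an unadjusted p under 0.05 for 2. By DESeq2 1 was called, *Aqp4*, against 4.88%. The count was 5 without SI replicate 3, against 7.22%: *Scnn1a*, *Car4*, *Slc9a3* and *Slc26a2* rose and *Aqp4* fell. The replicate block within site, with all libraries, called 3 in this step, against 9.78%. Here, too, the summed goblet and deep crypt secretory markers differed, at 14280 to 230300 in SI centre and 679100 to 1048000 in SI row >3 cells, and the SI enterocyte markers went from 2261 to 7412 up to 9333 to 46960. The differentiated absorptive markers were at 16020 to 28930 and 57420 to 114400, and the stem cell markers at 34520 to 115900 and 2710 to 15160, where SI replicate 3 was the lowest library in both groups. Their part was not tested.

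**Figure D3:**
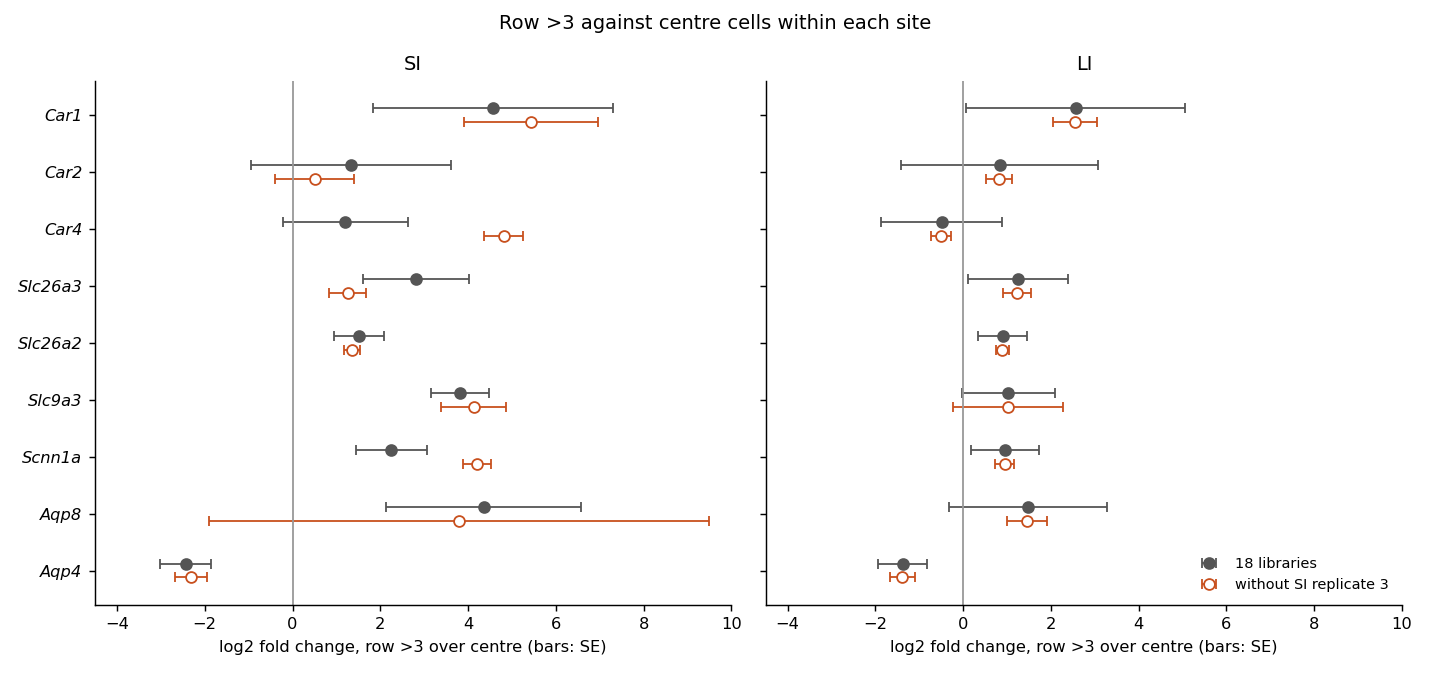
Fitted log2 fold change of row >3 over centre cells (x axis) for 9 members in the SI (left) and the LI (right), with bars for the SE; filled points use all 18 libraries and open points leave out SI replicate 3. *Aqp4* lies left of 0 at both sites; *Car4* lies right of 0 in the SI (4.81 without SI replicate 3) and just left of it in the LI (-0.50); in the LI the points coincide and only the errors change.

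Whether the step from centre to row >3 cells differed between the sites was tested as an interaction. With all libraries 0 members were called by edgeR's quasi-likelihood test, against 0% of all genes, with 0 at an unadjusted p under 0.05; DESeq2 called 0, with 1, and 0.558% of all genes. *Car4* and *Scnn1a* were the 2 members called without SI replicate 3, where 3.27% of all genes were: the LI step minus the SI step was -5.31 (SE 0.51, adjusted p 1.8e-05) and -3.26 (SE 0.38, adjusted p 6.6e-05) on the log2 scale. In the SI the step was 4.81 for *Car4* and 4.20 for *Scnn1a*, and in the LI -0.50 and 0.94. Their adjusted p ran up to 1 over the alternatives. *Aqp4* had a step of -2.31 (SI) and -1.39 (LI) without SI replicate 3, a difference of 0.92 (SE 0.45, adjusted p 0.455); it was called with the replicate block and all libraries, at 1.15 (SE 0.28, adjusted p 0.0343), where 2.32% of all genes were. The same difference for *Slc9a3* was -2.79 (SE 1.36, adjusted p 0.747) with all libraries, and so its rise in the SI and its absence from the calls in the LI were not shown to differ. For border against centre cells the interaction gave 0 calls, against 0% of all genes, with 0 members at an unadjusted p under 0.05 by edgeR and by DESeq2, which called 0.00749% of all genes. With the block and without SI replicate 3 it gave 1 call, *Scnn1a* at -1.74, against 0.416% of all genes, and the step to row >3 gave 3, against 7.63%.

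Per kilobase of exon, the members could be set in order within a group. In LI centre cells *Car2* had 3425 normalised counts per kb, *Car1* 2873, *Car4* 1217, *Slc26a2* 402, *Scnn1a* 355, *Aqp4* 238, *Slc26a3* 134, *Aqp8* 59.6 and *Slc9a3* 1.34. The ranges of *Car2* and *Car1* overlapped, as did those of *Slc26a2* and *Scnn1a*, while the other neighbours were apart. In LI row >3 cells *Car1* led with 16943, ahead of *Car2* with 6090 and without overlap, and *Aqp4*, at 90.8, had moved below *Aqp8*, at 171, with ranges that overlapped. In SI replicates 1 and 2 the order was another one. *Aqp4* led in centre cells with 357, followed by *Slc26a2* with 141 and *Slc26a3* with 43.3, and *Scnn1a* led in row >3 cells with 520, followed by *Slc26a2* with 359 and *Car4* with 307, of which the last pair overlapped.

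**Figure D4:**
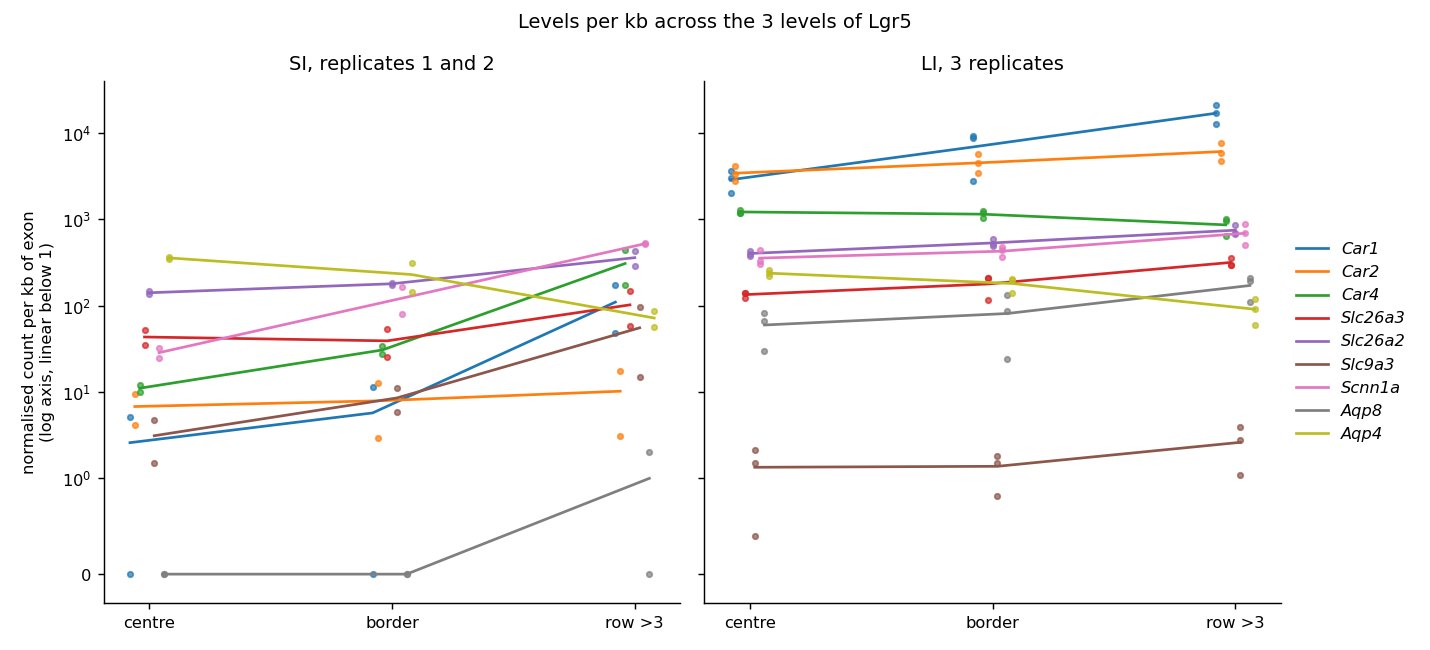
Normalised count per kb of exon (y axis, logarithmic above 1 and linear below) of 9 members at the 3 levels of *Lgr5* (x axis), in SI replicates 1 and 2 (left) and in the 3 LI replicates (right); dots are libraries and lines join the means. *Aqp4* comes down at both sites, *Car1* overtakes *Car2* in the LI, and *Slc9a3* is the lowest line of the LI and rises in the SI.

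The pathway around the members was described with 43 other genes of salt and water transport. With all libraries 1 of them was called higher and 1 lower in LI than in SI centre cells, 0 and 2 in border cells, and 1 and 3 in row >3 cells, or 4.65%, 4.65% and 9.3% of the list against 1.99%, 1.76% and 4.09% of all genes. The counts without SI replicate 3 were 13 and 2, 13 and 1, and 13 and 4, or 34.9%, 32.6% and 39.5% against 10.9%, 8.11% and 12.2%. On simulated counts this fit called too many unchanged genes, so its calls among these genes, here and below, may be too many. The median log2 fold change of the list was 0.34, 0.49 and 0.60, against 0 for all genes. Of the 8 genes of the sodium channel and the aldosterone response, edgeR's quasi-likelihood test called 0 at each level with all libraries, with 0, 1 and 2 at an unadjusted p under 0.05 in centre, border and row >3 cells, and DESeq2 called 0, 1 and 1, both lower. Without SI replicate 3 edgeR called 4 higher at each level and 1 lower in row >3 cells, or 50%, 50% and 62.5% of these genes, against the shares of all genes just given. *Hsd11b2*, which protects the mineralocorticoid receptor from glucocorticoids, had a log2 fold change of 6.17 (SE 0.35), 3.80 (SE 0.30) and 2.91 (SE 0.26) in centre, border and row >3 cells without SI replicate 3, and was not called with all libraries, at 2.15 (SE 1.40), 1.42 (SE 1.37) and 1.27 (SE 1.36). Its SI replicate 3 had 2093, 3764 and 7101. *Scnn1b*, the beta subunit of the sodium channel, was at 0 to 0.81 in SI replicates 1 and 2, at 76.5, 22.1 and 84.3 in centre, border and row >3 cells of SI replicate 3, and at 18.3 to 107 in the LI. *Scnn1g*, the gamma subunit, was at or below 4.56 in all libraries. The kinase gene *Sgk1* was higher in LI row >3 cells by 2.91 (SE 0.24) without SI replicate 3, which itself had 1321, above the 586 to 693 of the LI. With all libraries it was not called, at 0.45 (SE 0.89).

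Genes for scaffolds of *Slc9a3* and for another apical exchanger were also among the calls. *Pdzk1*, a scaffold that binds the exchanger, was at 16.6 to 708 in the 9 SI libraries and at or below 3.80 in the LI, with log2 fold changes of -6.13 (SE 1.35), -7.38 (SE 1.16) and -7.74 (SE 1.13) with all libraries, all called by edgeR's quasi-likelihood test, and -5.70 (SE 1.73), -6.52 (SE 1.45) and -7.74 (SE 1.17), also called, without SI replicate 3. With all libraries *Slc26a6*, an apical anion exchanger of the SI, was lower in LI border cells by -3.07 (SE 0.75) and in LI row >3 cells by -4.97 (SE 0.74), and *Slc9a3r1*, a further scaffold, was lower in row >3 cells by -0.96 (SE 0.22). *Slc9a3r2* was higher in LI centre cells, at 1.68 (SE 0.41). The *Slc26a6* call in border cells was lost without SI replicate 3, at -2.29 (SE 0.99, adjusted p 0.227), and the others held, at -5.20 (SE 0.72) for *Slc26a6* and -0.97 (SE 0.21) for *Slc9a3r1* in row >3 cells and 2.02 (SE 0.44) for *Slc9a3r2* in centre cells.

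From centre to row >3 cells of the SI, 7 of the 43 genes were called higher and 1 lower with all libraries, or 18.6% against 13.2% of all genes, and 14 and 4 without SI replicate 3, or 41.9% against 17.1%. *Slc26a6* rose by 3.42 (SE 0.64), *Pdzk1* by 2.14 (SE 0.67) and *Slc9a3r2* by 1.82 (SE 0.41) with all libraries, and *Aqp1*, the other aquaporin at a high level here, fell by 1.51 (SE 0.19). *Aqp1* thus went down together with *Aqp4* in the SI, and in the LI it fell by 0.90 (SE 0.16) without SI replicate 3. In the LI, edgeR's quasi-likelihood test called 0 of the 43 genes with all libraries, where 0.0187% of all genes were called, with 3 at an unadjusted p under 0.05. DESeq2 called 1, *Aqp1*, lower, against 0.348%. The replicate block within site, with all libraries, called 5 higher and 1 lower, or 14% against 2.59%. Without SI replicate 3 edgeR called 7 higher and 1 lower, or 18.6% against 1.9% of all genes. The leading ones were *Kcnma1*, a potassium channel gene, at 1.42 (SE 0.23), *Hsd11b2* at 1.15 (SE 0.21) and *Slc4a7*, a sodium bicarbonate cotransporter gene, at 0.99 (SE 0.14). For the difference of the steps between the sites, edgeR's quasi-likelihood test called 0 of the 43 with all libraries, against 0% of all genes, and 4 had an unadjusted p under 0.05. By DESeq2 1 was called, *Slc26a6*, against 0.558%. With the replicate block within site and all libraries 2 were called, *Slc26a6* and *Slc9a3r1*, both lower, against 2.32%. The edgeR count was 4 without SI replicate 3, or 9.3% against 3.27% of all genes. The LI step minus the SI step was then -3.26 (SE 0.41, adjusted p 1.6e-04) for *Hsd11b2*, the direction of *Scnn1a*, and 1.67 (SE 0.26, adjusted p 4.2e-04) for *Car12*. Of the other carbonic anhydrases, *Car8* was present at 1053 to 2492 and *Car12* at 249.6 to 2106 in all libraries, and of the other aquaporins, *Aqp3*, *Aqp5* and *Aqp7* were at or below 21.3.

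Finally, the genes most like each member were sought among 10223 genes with a mean of at least 5 CPM, by Pearson's r of log2(CPM + 1) over the 18 libraries, as a description. All libraries share the site, the level and SI replicate 3 as sources of the likeness. *Car1* was closest to *Cyp2c55*, *Hao2* and *Mpst* (0.994, 0.993 and 0.987) and *Car2* to *Ces1g* and *Il1r1* (0.996 each). *Car4* was closest to *Ces1f*, *Ablim1* and *Stc2* (0.994, 0.979 and 0.977), *Slc26a3* to *Abca12*, *Slc23a2* and *Slc35d1* (0.978, 0.965 and 0.965) and *Slc26a2* to *Nadk*, *Crat* and *Tgoln1* (0.987, 0.983 and 0.982). *Scnn1a* was closest to *Uap1*, *5330417C22Rik* and *Hepacam2* (0.979, 0.979 and 0.976), *Aqp8* to *Mettl7a1*, *Slc37a2* and *Mal* (0.967, 0.964 and 0.957) and *Aqp4* to *Trim37*, *Cnn3* and *Ncaph* (0.983, 0.982 and 0.976). *Slc9a3* and *Atp12a* were below the level asked for. Within the 9 LI libraries alone, r between members was 0.966 for *Car1* and *Slc26a3*, 0.927 for *Car1* and *Car2* and 0.927 for *Car4* and *Aqp4*, and -0.902 for *Scnn1a* and *Aqp4*.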

How the data were processed

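After adapter trimming and STAR alignment to mm10, the authors deposited raw counts per gene and library, together with a table of counts divided by 1 size factor per library (unit: signal), which equals DESeq2's median-of-ratios factor to a relative difference of 7.77e-16. Neither the annotation release nor whether counting used strand is given in the sources used here. *Car1* and *Slc26a3* overlap pseudogenes on the same strand that reached at most 0.0549 CPM, and *Atp12a* and *Aqp4* overlap antisense genes that are not in the table. Positions and exon lengths are from GENCODE M21 (GRCm38).

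Raw counts of 26717 genes with a mean above 0 were tested with edgeR 4.0.16 (R 4.3.3): TMM factors, 1 robust quasi-likelihood fit over 6 groups (12 residual degrees of freedom), no block, and Benjamini-Hochberg adjustment over all genes tested, called under 0.05. The steps were tested on simulated data. Alternatives were RLE factors, library size only, filterByExpr, no filter, replicate blocks, the legacy fit, the groups compared only, DESeq2 1.42.0, each library left out, SI replicate 3 left out (with or without a block) and replicate 3 left out at both sites. 2 alternatives were added after the data were seen: SI replicate 3 left out with DESeq2 and with filterByExpr. Leaving out SI replicate 3 also rests on values of these data, among them those of the members.

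Deviations from group means of libraries with equal replicate numbers correlated at 0.158 to 0.554 in 9 pairs of SI groups and 0.197 to 0.39 in 9 pairs of LI groups, and at -0.03 to 0.16 between the sites at the same level (15998 genes), so that equal numbers were taken as pairs within a site. The main fit, without a block, leaves this pairing out of the tests between levels. For these steps the replicate block within site, which keeps the pairs, is given beside it. In both sites 4 Y-linked genes summed to 2752 to 5374 counts in replicate 2 and at most 5 in replicates 1 and 3.

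The members and lists were chosen with earlier results of these data known. All 10 members are named; of the 43 other transport genes, up to 3 called genes per direction and comparison with the largest change and at least 1 CPM, besides subunits and family members whose levels are given. 12 marker lists were measured; their sums are in normalised counts. Some markers and similar genes, and the sum of the LI markers, are not reported here. Over all libraries, summed markers lay at 373 to 12980 for enteroendocrine, 625.6 to 23250 for tuft, 81.1 to 1617 for immune and 7.29 to 379.7 for stromal cells. The highest tuft sum was in SI border replicate 1. Intervals of counting error apart, depth limits *Slc9a3* in the LI, *Aqp8* and *Atp12a*. Figures were drawn with matplotlib 3.10.9.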

Additional observations from a re-analysis of the deposited data

Results flagged for a closer look

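The step from centre to row >3 cells differed between the sites for 3 members, by an interaction test, in some fits and for none with all libraries and no block. Without SI replicate 3, the step in *Car4* was 5.31 lower in the LI (log2 fold change of the difference -5.31, or -5.31 with the replicate block as well), where SI replicates 1 and 2 both rose and all 3 LI replicates were lower in row >3 cells. The step in *Scnn1a* was -3.26 without SI replicate 3 and -3.28 with the block as well, where SI replicates 1 and 2 rose by more than any LI replicate and SI replicate 3 did not. Its step from centre to border cells also differed, by -1.74, with SI replicate 3 left out and the block. Without the block and SI replicate 3 it was called by DESeq2, at -1.82, and not by edgeR, at -1.76. The step in *Aqp4* differed by 1.15 with the block and all libraries and by 0.93 with the block and without SI replicate 3, with a decrease in every replicate of both sites that was larger in the SI. The *Aqp4* difference was not called without the block.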

How the results depend on the processing

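Counts of members called by edgeR's quasi-likelihood test, in the order LI against SI in centre, border and row >3 cells, then SI border against centre, row >3 against centre and row >3 against border, then the same 3 in the LI, then the difference between the sites in border and in row >3 cells, were 0, 1, 1, 0, 2, 0, 0, 0, 0, 0 and 0 with all libraries. They were 7, 7, 7, 1, 6, 5, 0, 4, 0, 0 and 2 without SI replicate 3, and 7, 7, 7, 1, 7, 6, 0, 5, 0, 0 and 2 with filterByExpr as well, where 19.7%, 15.4%, 21.2%, 1.66%, 29.7%, 13.2%, 0%, 3.65%, 0.103%, 0.326% and 5.94% of the genes tested were called. DESeq2 without SI replicate 3 gave 7, 8, 7, 2, 7, 7, 0, 5, 1, 1 and 2, against 13.4%, 12.8%, 13.7%, 2.45%, 18.8%, 10.6%, 0.00382%, 4.47%, 0.814%, 0.836% and 5.71% of all genes. The replicate block within site gave 6, 6, 6, 6, 9, 3, 0, 5, 0, 0 and 1 with all libraries and 8, 8, 7, 1, 6, 6, 0, 7, 4, 1 and 3 without SI replicate 3, the latter against 17.6%, 14.2%, 18.9%, 2.28%, 23.7%, 12.5%, 0.0153%, 6.78%, 1.53%, 0.416% and 7.63% of all genes. Replicate 3 left out at both sites gave 6, 6, 6, 1, 5, 3, 0, 2, 0, 0 and 2, against 8.08%, 5.96%, 9.58%, 1.03%, 16.5%, 6.98%, 0%, 0.942%, 0.00782%, 0.0977% and 2.21%. In LI against SI the block within site takes the spread between replicates out of the error, and these counts are not leant on. The replicate block over all libraries called 4 members in SI row >3 against centre and 1 against border cells (16.9% and 4.65% of all genes), DESeq2 on all libraries 5 and 1 (15.9% and 4.88%), and the groups compared only 1 in SI and 5 in LI row >3 against centre cells (10.7% and 1.03%). RLE factors, library size only, filterByExpr, no filter and the legacy fit left all 11 counts as they were. Without SI centre replicate 3 alone, 2 were called in LI against SI centre cells, 1 in SI border and 4 in SI row >3 against centre cells (4.66%, 1.21% and 14.3% of all genes), and without SI border replicate 3 alone, 2 in SI row >3 against border cells (5.71%). Leaving out 1 library gave 0 to 2, 0 to 1 and 1 to 1 in LI against SI, 0 to 1, 1 to 4 and 0 to 2 in the SI, 0 to 0 in each LI step, and 0 to 0 and 0 to 1 for the differences. In these fits 0.679% to 4.66%, 0.504% to 3.24% and 1.43% to 6.34% of all genes were called in LI against SI. In the SI steps the shares were 0% to 1.21%, 7.44% to 14.3% and 0.0113% to 5.71%. At most 0.0113% were called in any LI step, and at most 0.0871% and 0.875% for the differences.

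The sign of the following log2 fold changes turned, and the cause was not tested. For *Slc26a3* in border cells the value was 2.16 without SI replicate 3 (2.18 by DESeq2, 2.196 with filterByExpr, 2.07 with the block), 2.03 without replicate 3 at both sites, and 0.58 and 0.43 with the block within site and over all. In row >3 cells these were 1.63 (1.64, 1.69, 1.66), 1.58, 0.47 and 0.37. For *Aqp8* in border cells they were 10.17 (8.65, 10.19, 11.36), 9.46, 4.72 and 0.17, and in row >3 cells 7.42 (7.49, 7.47, 8.29), 7.28, 5.01 and 1.46. With 1 library left out, *Slc26a3* ran from -1.004 to 2.235 and from -1.06 to 1.68, *Aqp8* from -1.43 to 10.14 and from -1.05 to 7.45, *Car1* in border cells from -0.38 to 9.97, *Scnn1a* in SI border against centre cells from -0.0824 to 2.81, *Car1* in SI row >3 against centre cells from -2.02 to 12.03, and *Car4* in SI row >3 against border cells from -0.37 to 4.22. On simulated counts, the fit without SI replicate 3 called several times more unchanged genes than its threshold allows. Once low counts were filtered it called far fewer of them, though still not below what the threshold allows, which is why filterByExpr was added.

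With 2 or 3 libraries per group and totals of 8312093 to 31940965 counts, *Atp12a* could not be compared, and the size of the *Aqp8* difference without SI replicate 3 is a lower bound in centre and border cells.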
